A study of Bos indicus with 11 samples.

Results

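Oxidative phosphorylation takes place in the inner mitochondrial membrane. Complexes I and II pass electrons from NADH and succinate to ubiquinone, complex III passes them to cytochrome c, complex IV passes them to oxygen, and complex V, the ATP synthase, uses the proton gradient that results. Most subunits are encoded in the nucleus and a few in the mitochondrial genome, and the nuclear genes are transcribed in nearly every cell type of a tissue such as the endometrium. The nuclear subunit genes were taken from the deposited table by symbol, as every row whose symbol began with NDUFA, NDUFB, NDUFC, NDUFS or NDUFV and a number, was SDHA to SDHD, or began with UQCR, COX4 to COX8 or ATP5 and a letter. The rule found 84 of 24616 rows, of which 37 belonged to complex I, 4 to complex II, 8 to complex III, 18 to complex IV and 17 to complex V. A mean of at least 5 normalized counts over the 11 cows was reached by 81 of these rows and by 15081 rows of the whole table. The 3 rows below it were COX6A2, at 0.188 normalized counts in P cows and 0.215 in NP cows, COX6B2, at 1.70 and 1.62, and COX7B (ENSBTAG00000030735), at 1.90 and 1.96. COX6A2 is known as the form of COX6A in heart and skeletal muscle and COX6B2 as the form of COX6B in testis. A further 4 rows, of COX8A, COX6C, NDUFA12 and ATP5E (ENSBTAG00000032954), were not counted, because their symbol cell holds several symbols and does not match the rule as a whole.

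RNA was sequenced from endometrial biopsies of 11 healthy, multiparous Nelore cows (Bos indicus) that were synchronized with a prostaglandin analogue and inseminated at estrus. The biopsies were taken 6 days after artificial insemination (AI) from the horn opposite the ovulation, and the cows were grouped afterwards by the diagnosis on day 30 as pregnant (P, n = 6) or non-pregnant (NP, n = 5). No treatment separated the groups, each library came from 1 cow, and the studied cows had been chosen for similar progesterone on the day of biopsy. Cow P617 is labelled pregnant, while a supplementary list of the study names it as non-pregnant and gives 1 sequencing run to P1541 and P1631 together, so results are also given without P617.

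Between 9290949 and 13569085 reads were counted on genes per cow. A biopsy holds several cell types, and in bulk RNA fewer cells of a type and less RNA per cell cannot be told apart. All 14 epithelial markers looked up and 8 of 9 stromal markers had a mean of at least 5 normalized counts. Epithelial markers summed to between 2849 normalized counts, in P617, and 29456 in P cows and to between 12999.5 and 19231 in NP cows. The 9 smooth muscle markers tested summed to between 85661 and 671570 in P cows and between 42698 and 287789 in NP cows, and were highest in P617 and P1541. Pericyte markers (6 of 7 tested) summed to 3956 to 8357 in P cows and 7566 to 9242 in NP cows, and 3 of the 6 were higher in NP cows at an unadjusted p-value under 0.05, as were 7 of 8 endothelial, 4 of 9 immune and 2 of 8 stromal markers, against 5.49% of all genes tested. In the other direction were 2 of 9 smooth muscle markers, all 9 of which had negative log2 fold changes, and 1 of 14 epithelial markers, against 2.35% of all genes. Endothelial markers summed to 3793 to 12827 in P cows and 7947 to 13805 in NP cows, and immune markers to 1156 to 2135 and 1414 to 3172. Of 6 rows for red blood cell genes, 3 were at 0 in every cow and none had more than 13 reads.

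The expression of the subunit genes differed little between P and NP cows. The log2 fold changes, given as NP over P on the log2(normalized count + 1) scale, had a median of -0.01, with 34 genes above 0 and 47 below 0. Among all genes tested the median was 0.0018 and 50.2% were above 0. The median size of the change, without its sign, was 0.09 for the subunit genes, 0.20 for all genes tested and 0.16 for the 10834 genes whose mean was 100 or more. By complex, the median log2 fold change was -0.01 for complex I, 0.01 for complex II, -0.09 for complex III, 0.06 for complex IV and -0.07 for complex V. Genes higher in NP cows made up 15 of 37 in complex I, 3 of 4 in complex II, 2 of 8 in complex III, 10 of 15 in complex IV and 4 of 17 in complex V.

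With limma, none of the 81 genes passed the adjusted threshold of 0.1 (0% of all genes tested did), and adjusted p-values ran from 0.563 to 0.996. At an unadjusted p-value under 0.05 there were 2 subunit genes, NDUFA4L2 and UQCR10, which is 2.47% of the members against 7.84% of all genes tested. Both were higher in NP cows, a direction in which 5.49% of all genes were called, and 0 members were called higher in P cows, against 2.35% of all genes. DESeq2 on the recovered reads called 0 subunit genes at an adjusted p-value under 0.1 (1.33% of all genes) and 2, COX6A1 and UQCR10, at an unadjusted p-value under 0.05 (9.75% of all genes). The quasi-likelihood test of edgeR called 0 genes of the whole table after adjustment and 1 subunit gene, UQCR10, at an unadjusted p-value under 0.05 (7.63% of all genes). In none of the 81 genes did all cows of a group lie above all cows of the other, against 1.09% of all genes tested. The unadjusted count fell to 0 without cow P617 or cow P1753 and to 1 without P1541, P1631, NP2541, NP2810 or NP856. That 1 gene was UQCR10 without P1631, NP2541 or NP856. It was COX7C (ENSBTAG00000039555) without P1541, and NDUFB4, higher in P cows, without NP2810. Without P904 there were 3, NDUFA4L2, UQCR10 and NDUFB8, the last higher in P cows, which is 3.70% of the members against 10.3% of all genes. With each cow left out in turn, 5.66% to 10.3% of all genes tested had such a p-value. With the smooth muscle markers as a covariate there were 2 others, NDUFS1 and UQCRFS1, both higher in P cows (2.47% of the members against 5.87% of all genes).

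The intervals show how small a difference these 11 cows allowed. The 95% interval of the log2 fold change lay wholly between -0.5 and 0.5, a change of less than about 1.41-fold in either direction, in 59 of the 81 genes (72.8%). This was so in 27.9% of all genes tested and in 38.4% of those with a mean of at least 100. It held for 28 of 37 genes of complex I, 4 of 4 of complex II, 7 of 8 of complex III, 8 of 15 of complex IV and 12 of 17 of complex V. Across all members the intervals reached from -1.38, for COX7C (ENSBTAG00000039440), to 1.52, for NDUFA4L2, and the median standard error was 0.139. The number of genes within these limits was between 48 and 66 with 1 cow removed at a time, and 66 without P617.

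**Figure D1:**
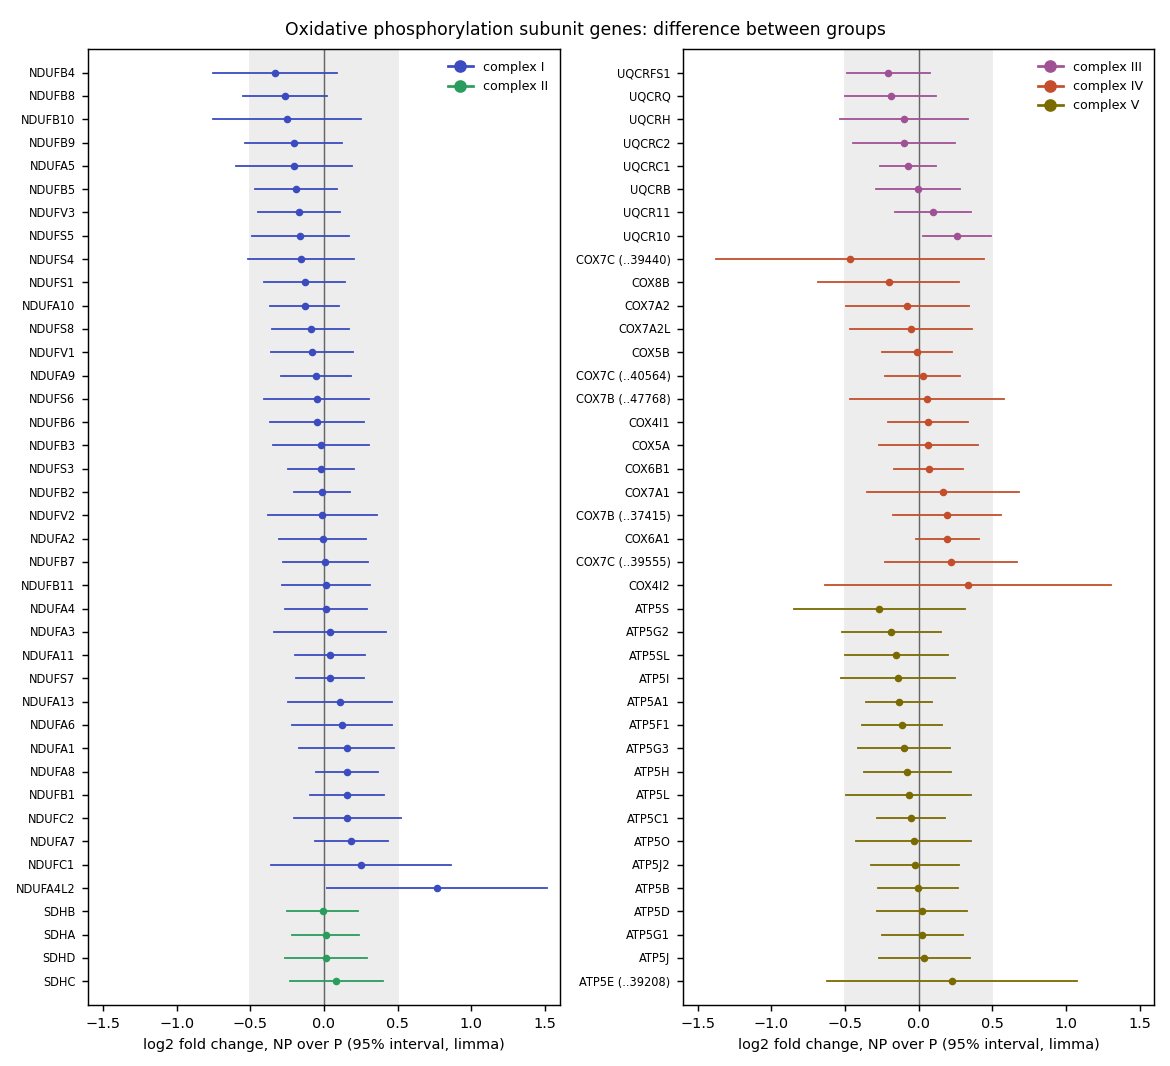
Log2 fold change (NP over P, limma on log2(normalized count + 1)) of 80 of the 81 subunit genes with its 95% interval, ordered within each complex; the gray band spans -0.5 to 0.5. Most intervals stay inside the band, and only those of NDUFA4L2 and UQCR10 lie wholly above 0. Where a symbol has several rows, the end of the Ensembl identifier is given.

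Complex I takes electrons from NADH. The core subunits of its catalytic arm belong to the flavoprotein (NDUFV) and iron-sulfur (NDUFS) families, which also hold accessory subunits such as NDUFV3. The 11 genes of these families had 1 positive and 10 negative log2 fold changes, from -0.17 for NDUFV3 to 0.04 for NDUFS7. NDUFV1, which carries the flavin that accepts electrons from NADH, had 925 to 1531 normalized counts in P cows (median 1167) and 1069, 1011, 1158, 1162 and 1151 in cows NP238, NP2541, NP2810, NP638 and NP856. The values of the NP cows all lay inside the range of the P cows. The means were 1186 ± 216 (SD, n = 6) and 1110 ± 67.4 (SD, n = 5), with a log2 fold change of -0.08 (SE 0.127). NDUFS1, the largest iron-sulfur subunit, had 1532 ± 183 normalized counts in P cows and 1404 ± 216 in NP cows. NDUFS7 and NDUFS8, which hold iron-sulfur clusters, had log2 fold changes of 0.04 (SE 0.105) and -0.09 (SE 0.12). For none of these named core genes was the unadjusted p-value of limma under 0.05.

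Most of the remaining genes with complex I symbols code for accessory subunits, many of which hold the membrane arm together. NDUFA4 and its paralogue NDUFA4L2 were placed here by symbol, although NDUFA4 is now counted as a complex IV subunit. Among the 11 NDUFB genes 3 were above 0 and 8 below 0, with a median log2 fold change of -0.05, and among the 13 NDUFA genes 9 were above 0 and 4 below 0, with a median of 0.04. NDUFB4 had the most negative value of complex I. It had 424 to 848 normalized counts in P cows (median 572) and 418, 474, 669, 448 and 385 in cows NP238, NP2541, NP2810, NP638 and NP856. The groups overlapped over most of their range, since NP2810 lay above 4 of the P cows and P2396 below 3 of the NP cows. The means were 608 ± 152 (SD, n = 6) and 479 ± 111 (SD, n = 5), and the log2 fold change was -0.33 (SE 0.192, limma adjusted p = 0.738), or -0.14 without P617 and P1541. NDUFB8 had a log2 fold change of -0.26 (limma adjusted p = 0.678), and its highest values, 725 and 721 normalized counts, were those of P617 and P1541. Without these cows it was -0.10, and with the smooth muscle markers as a covariate -0.11, within a range of adjusted p-values of 0.402 to 0.992 over the alternatives. NDUFC1 and NDUFC2, which join the membrane arm, had log2 fold changes of 0.25 and 0.16.

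NDUFA4L2 had the largest log2 fold change of the 81 genes. It is a paralogue of NDUFA4 known to be induced by hypoxia-inducible factor, and transcripts of it are known from pericytes. NDUFA4L2 had 40.7, 36.5, 43.3, 44.6, 38.4 and 117 normalized counts in cows P1541, P1631, P1753, P2396, P617 and P904. In cows NP238, NP2541, NP2810, NP638 and NP856 it had 49.6, 120, 113, 78.1 and 76.4. Thus 5 of the 6 P cows lay below every NP cow, and P904 lay within the upper end of the NP cows. The P cows averaged 53.4 ± 31.2 (SD, n = 6) and the NP cows 87.4 ± 29.0 (SD, n = 5). The log2 fold change was 0.77 (SE 0.341, 95% interval 0.02 to 1.52, limma unadjusted p = 0.0443, adjusted p = 0.617). Without P904 the log2 fold change was 1.02, the highest of the alternatives, with an adjusted p-value of 0.145 in limma. It was 0.59, the lowest, with the smooth muscle markers as a covariate and 0.63 without P617 and P1541. The unadjusted p-value was 0.0606 in DESeq2 and 0.0700 in edgeR. Over all alternatives adjusted p-values ran from 0.145 to 0.967. P904 had the highest median level of the pericyte markers among the P cows, 0.23 on the log2 scale, while the NP cows lay between 0.24 and 0.60. P617, at 0.19, and NP238, at 0.24, had similar pericyte levels but 38.4 and 49.6 normalized counts of NDUFA4L2. P904 was also the highest P cow for the endothelial markers, at 0.44, and for the immune markers, at 0.44. The part of the pericytes in this difference was not tested. NDUFA4 itself, now counted as a complex IV subunit, had 1735 to 2454 normalized counts in P cows (median 1877) and 1663 to 2281 in NP cows, with a log2 fold change of 0.02 (SE 0.126). Counts are not corrected for gene length, so a difference between isoforms is read here only for how it varies among cows. The log2 difference of NDUFA4L2 from NDUFA4 averaged -5.29 ± 0.70 (SD, n = 6) among P cows, against -4.53 ± 0.61 (SD, n = 5) among NP cows, with P904 at -3.92 against -5.88 to -5.36 in the other P cows.

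Complex II, succinate dehydrogenase, joins the citric acid cycle to the respiratory chain and has 4 nuclear subunits. SDHA, the flavoprotein that oxidizes succinate, had 2751 to 3439 normalized counts in P cows (median 3239) and 3561, 2723, 3238, 3021 and 3422 in cows NP238, NP2541, NP2810, NP638 and NP856. The means were 3163 ± 248 (SD, n = 6) and 3193 ± 332 (SD, n = 5), so that the difference was far smaller than the spread among cows. SDHB, the iron-sulfur subunit, and SDHC and SDHD, the membrane anchors, had log2 fold changes of -0.01 (95% interval -0.25 to 0.23), 0.08 (-0.23 to 0.40) and 0.01 (-0.26 to 0.29). For SDHA the interval was -0.22 to 0.24. SDHC and SDHD were lowest among the P cows in P904, at 534 and 746 normalized counts.

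Complex III carries electrons from ubiquinone to cytochrome c. UQCR10, a small subunit of its membrane part, was the gene with the lowest p-value among the 81. It had 737 to 1023 normalized counts in P cows (median 837) and 1025, 953, 1211, 967 and 997 in cows NP238, NP2541, NP2810, NP638 and NP856. Apart from P1631, at 1023, every P cow lay below every NP cow. The means were 861 ± 95.8 (SD, n = 6) and 1030 ± 105 (SD, n = 5). The log2 fold change was 0.26 (SE 0.105, 95% interval 0.03 to 0.49), or 1.20-fold (limma unadjusted p = 0.0301, adjusted p = 0.563). With the smooth muscle markers as a covariate it was 0.14, and adjusted p-values ran from 0.298 to 0.985 over all alternatives. The Rieske protein UQCRFS1, which holds the iron-sulfur cluster of the complex, had the most negative value, with 1711 ± 244 normalized counts in P cows and 1483 ± 216 in NP cows and a log2 fold change of -0.21 (SE 0.13, limma adjusted p = 0.765). The core proteins UQCRC1 and UQCRC2 had log2 fold changes of -0.07 (SE 0.0865) and -0.10 (SE 0.158). UQCRC1 was among the genes with the smallest spread, with 1584 to 1922 normalized counts in P cows and 1554 to 1818 in NP cows.

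Complex IV, cytochrome c oxidase, reduces oxygen, and several of its nuclear subunits exist as isoforms that differ between tissues. COX6A1, the widespread form of COX6A, had 2674 to 3152 normalized counts in P cows (median 2929) and 3638, 3163, 3275, 2972 and 3820 in cows NP238, NP2541, NP2810, NP638 and NP856. Every NP cow except NP638 lay above the highest P cow. The log2 fold change was 0.19 (SE 0.098, 95% interval -0.02 to 0.41), with an adjusted p-value of 0.682 in limma and of 0.393 in DESeq2, within a range of 0.393 to 0.988 over the alternatives. COX5A and COX5B, which sit close to the catalytic core, had log2 fold changes of 0.07 (SE 0.154) and -0.01 (SE 0.108), and COX6B1, which faces the intermembrane space, had 0.07 (SE 0.106).

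COX4 is a regulatory subunit with a general form, COX4I1, which averaged 2801 ± 445 normalized counts among P cows (SD, n = 6) against 2895 ± 160 among NP cows (SD, n = 5). COX4I2, the form known for its response to low oxygen, had 16.0 to 79.5 normalized counts in P cows (median 33.9) and 23.3, 36.1, 48.9, 39.6 and 88.2 in cows NP238, NP2541, NP2810, NP638 and NP856. The groups overlapped between 23.3 and 79.5, with 2 P cows below every NP cow and NP856 above every P cow, and its SD of 0.745 on the log2 scale was the largest among the 81 genes. The log2 fold change of COX4I2 was 0.33 (SE 0.444, limma adjusted p = 0.881).

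COX7A1, the form of COX7A known from heart and skeletal muscle, had 338, 198, 265, 186, 517 and 305 normalized counts in cows P1541, P1631, P1753, P2396, P617 and P904. In cows NP238, NP2541, NP2810, NP638 and NP856 it had 311, 315, 281, 342 and 348. The NP cows formed a narrow band. P1541 and P904 lay inside it, P1631, P1753 and P2396 below it, and only P617 above it, by far. The means were 301 ± 121 (SD, n = 6) and 319 ± 26.9 (SD, n = 5), with a log2 fold change of 0.17 (SE 0.236, limma adjusted p = 0.887). It was 0.34 without P617 and 0.45 without P617 and P1541, with an unadjusted p-value of 0.0214 and an adjusted p-value of 0.350 in limma. It was 0.05 without P2396, 0.06 without P1631, 0.10 in edgeR and 0.08 in DESeq2, and adjusted p-values were 0.350 to 0.993 over all alternatives. The general form COX7A2 had 296 normalized counts in P617, the lowest of all cows, and 361 to 628 in the others. Within a cow, the log2 difference of COX7A1 from COX7A2 was 0.80 in P617 and -1.66 to -0.55 in the other P cows, and -0.89 to -0.08 in NP cows. COX8B, a form known from muscle and brown fat, was likewise high in P617, with 516 normalized counts against 211 to 340 in the other cows, and had a log2 fold change of -0.20 (SE 0.218). COX8A, its general form, had 541 ± 86.9 normalized counts in P cows and 587 ± 75.1 in NP cows.

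Some complex IV symbols stand on several rows, and reads may have been divided among near-identical copies in counting. COX7C had rows with means of 717, 328 and 9.53 normalized counts and log2 fold changes of 0.03 (ENSBTAG00000040564), 0.22 (ENSBTAG00000039555) and -0.47 (ENSBTAG00000039440). The last of these was the most negative of all 81 genes, with 5.75 to 16.0 normalized counts in P cows and 3.04 to 12.9 in NP cows, a level at which counting error adds to the spread. COX7B had 2 rows that were tested, with log2 fold changes of 0.19 (ENSBTAG00000037415) and 0.06 (ENSBTAG00000047768). COX7A2L matches the rule, but its product is known as a factor that binds complexes III and IV into supercomplexes. It had a log2 fold change of -0.05 (SE 0.19).

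**Figure D2:**
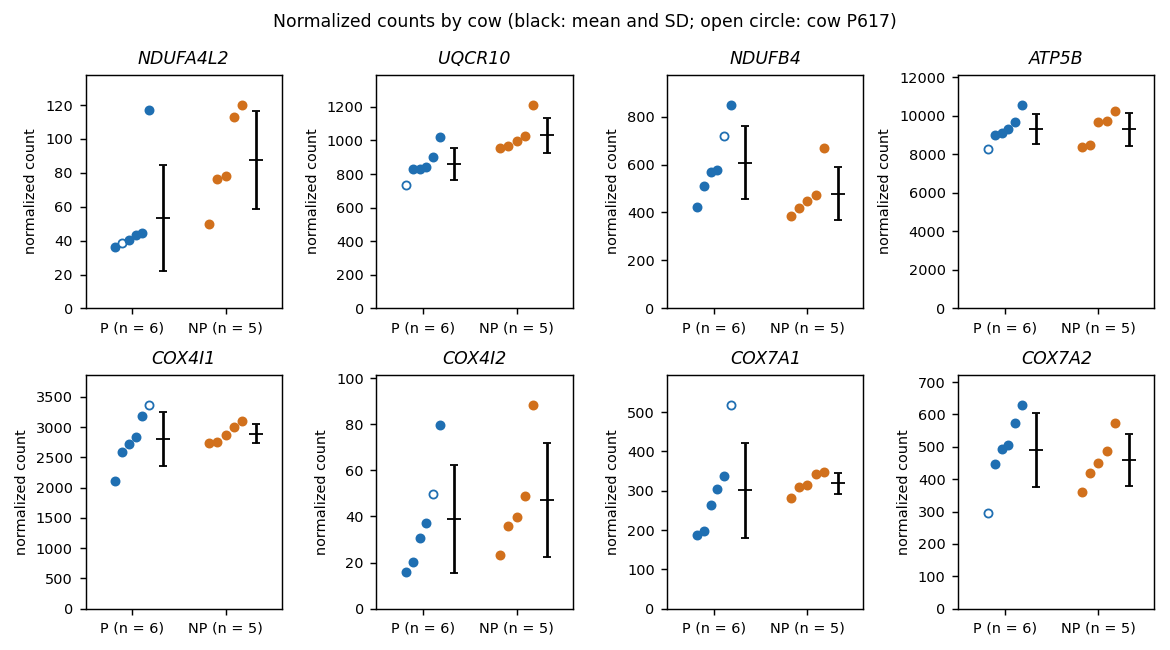
Normalized counts in each cow of 8 subunit genes, with P cows in blue, NP cows in orange and the mean and SD in black; within a group the cows are ordered by value. In NDUFA4L2 and UQCR10 all but 1 of the P cows lie below the NP cows, in ATP5B and COX4I1 the groups overlap, and P617 (open circle) is the highest P cow for COX7A1 and the lowest for COX7A2.

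Complex V makes ATP. ATP5B, the catalytic beta subunit, had 8281 to 10548 normalized counts in P cows (median 9188) and 9698, 8354, 10242, 8458 and 9672 in cows NP238, NP2541, NP2810, NP638 and NP856. The means were 9309 ± 758 (SD, n = 6) and 9285 ± 835 (SD, n = 5), and the 95% interval of the log2 fold change was -0.27 to 0.27. The alpha subunit ATP5A1 averaged 5885 ± 437 normalized counts in P cows and 5360 ± 354 in NP cows, so that its log2 fold change was -0.13 (SE 0.103, limma adjusted p = 0.799). The gamma subunit ATP5C1, the rotating stalk, had -0.05 (SE 0.105). For these 3 genes the SD over the 11 cows was 0.117 to 0.142 on the log2 scale. The genes ATP5G1, ATP5G2 and ATP5G3 code for the same mature c subunit of the ring, and had log2 fold changes of 0.02 (SE 0.126), -0.19 (SE 0.154) and -0.10 (SE 0.143). The log2 difference of ATP5G1 from ATP5G2 averaged -1.46 ± 0.25 (SD, n = 6) among P cows, against -1.25 ± 0.26 (SD, n = 5) among NP cows, with overlap between the groups.

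Of the 10 genes for stalk and membrane subunits of complex V, the ATP5G genes included, 8 were below 0, from -0.19 for ATP5G2 to 0.04. ATP5S and ATP5SL match the rule, although their products are not structural subunits of the enzyme. ATP5S had the most negative log2 fold change of the ATP5 genes, -0.27 (SE 0.266), which rested on P617. It had 438 normalized counts in that cow and 139 to 223 in the other P cows, and 170, 184, 138, 185 and 158 in cows NP238, NP2541, NP2810, NP638 and NP856. The row of ATP5E, the epsilon subunit, that was counted (ENSBTAG00000039208) had 197 normalized counts in P1541, 44.5 to 76.8 in the other P cows and 46.7 to 114 in NP cows. A second ATP5E row (ENSBTAG00000032954), behind another symbol, had 1996 ± 253 normalized counts in P cows and 1866 ± 328 in NP cows, so that reads of near-identical copies may be divided between them.

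Cows differed more than groups. For each cow, the level of the subunit genes was taken as the median over the 81 genes of the log2 value minus the mean of the gene over all cows. This level was 0.22 in P1541, 0.02 in P1631, 0.0033 in P1753, -0.23 in P2396, 0.06 in P617 and -0.01 in P904. In cows NP238, NP2541, NP2810, NP638 and NP856 it was -0.03, -0.10, 0.18, -0.09 and 0.01. The highest and the lowest cow were both P cows, and the 5 NP cows lay between them. The group means were 0.01 ± 0.14 (SD, n = 6) and -0.0047 ± 0.11 (SD, n = 5). P1541 exceeded P2396 in 70 of the 81 genes, with a median difference of 0.39 on the log2 scale, or 1.31-fold. These cows were compared because they were most often the highest and most often the lowest in these same genes. A high count therefore follows from the choice, and it was not taken over all genes tested. P1541 was the highest cow of all in 23 genes and the lowest in 0, NP2810 was highest in 19, and P2396 was lowest in 26. P1541 was at 0.18 to 0.26 and P2396 at -0.27 to -0.18 in complexes I, III, IV and V, and P2396 was the lowest cow in each of these. In complex I NP2810, at 0.22, was level with P1541. Complex II departed from it, with P1541 at 0.03, P904 lowest at -0.22 and NP238 highest at 0.19.

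The subunit genes took 0.827% ± 0.0665 of the reads on genes among P cows (SD, n = 6), against 0.863% ± 0.0759 among NP cows (SD, n = 5), with a range of 0.714% to 0.962% over the 11 cows and the lowest share in P617. Their summed normalized counts averaged 96153 ± 8733 among P cows and 93668 ± 8063 among NP cows, so that share and sum differed in direction, each by less than the SD. The 73 genes of the mitochondrial ribosome were also high in P1541, P617 and NP2810, at 0.22, 0.24 and 0.23, and were lowest in NP238, at -0.15. The 73 genes of the cytosolic ribosome moved further, from -0.51 in P2396 to 1.17 in P617. The median level ranged over 0.45 for the subunit genes, 1.68 for the cytosolic ribosome, 3.85 for the smooth muscle markers and 3.94 for the epithelial markers. The smooth muscle level was 1.75 in P1541, -1.72 in NP2810 and 2.13 in P617, whose subunit levels were 0.22, 0.18 and 0.06. The part of tissue make-up in these differences between cows was not tested.

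**Figure D3:**
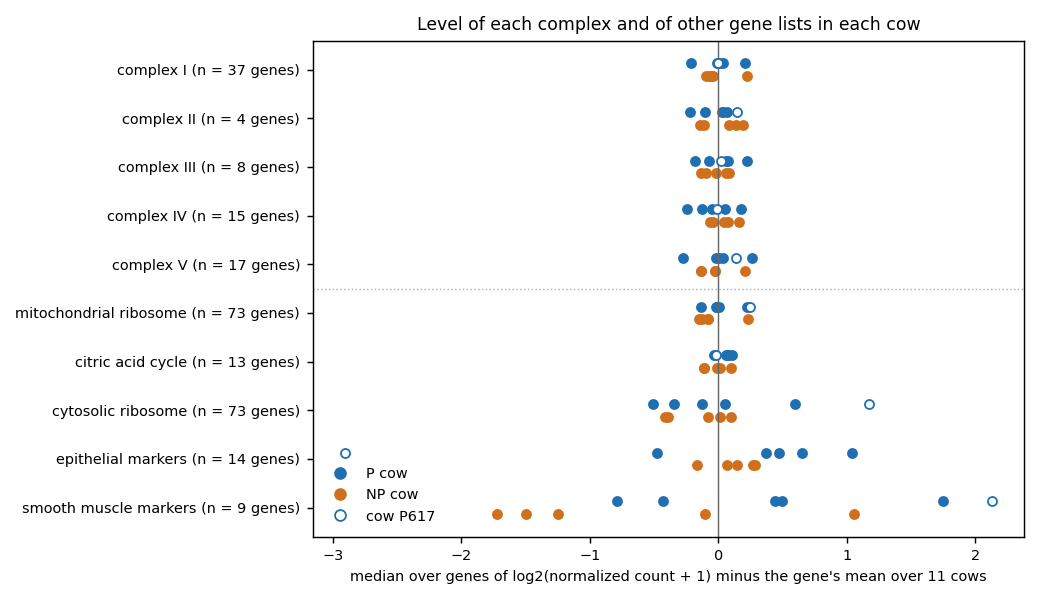
Median level of each complex and of 5 other gene lists in each cow, as the median over genes of log2(normalized count + 1) minus the mean of the gene over the 11 cows. For each complex the cows lie within 0.54 of each other and the groups overlap, while the epithelial and smooth muscle markers spread over 3.94 and 3.85, with P617 (open circle) at their ends.

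Among the subunit genes, cow P617 had a pattern that differed from that of the other cows. Its median level was 0.06, yet it was the highest cow in 17 genes and the lowest in 13, and the SD of its deviations over the 81 genes was 0.387, against 0.166 to 0.278 in the other cows. The same counts and SD were not taken over all genes tested, so the pattern is not shown to be particular to the subunit genes. The genes given here were chosen after their values were seen. P617 exceeded every other cow in NDUFB10, with 2158 normalized counts against 797 to 1406, in UQCRH, the hinge protein of complex III, with 2918 against 1232 to 2175, in COX7A2L, with 2820 against 1341 to 2075, and in ATP5L, with 1308 against 620 to 1140. It lay below every other cow in NDUFC1, with 56.5 against 85.6 to 191, in NDUFC2, with 895 against 1170 to 1833, in NDUFA6, with 428 against 566 to 830, and in NDUFA13, with 878 against 1160 to 1783. P617 also had the highest smooth muscle and cytosolic ribosome levels and the lowest epithelial level of all cows, and their part in its pattern was not tested.

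Without P617 and P1541 the median log2 fold change of the subunit genes was 0.04, with 51 of 81 above 0. At an unadjusted p-value under 0.05 there were then 3 genes, COX7A1, COX7C (ENSBTAG00000039555) and ATP5E (ENSBTAG00000039208), all higher in NP cows, which is 3.70% of the members against 11.1% of all genes, and 0 passed the adjusted threshold in limma. In 0 of the 81 genes were the groups then free of overlap, against 3.66% of all genes. Without P617 alone, limma gave 0 members an unadjusted p-value under 0.05, against 8.95% of all genes.

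Most subunit genes varied less from cow to cow than the median gene tested. The SD of the log2 values over the 11 cows had a median of 0.219 over the 81 genes and of 0.423 over all genes tested. Counting noise is larger in genes with few reads, and 76 of the 81 genes had a mean of at least 100. These 76 had a median SD of 0.213, against 0.320 for all 10834 such genes, and 67 of them (88.2%) were below that value. Genes were not matched for level beyond this limit. NDUFB2, an accessory subunit of complex I, had the smallest SD of the 81 genes, 0.0857, with 537 to 620 normalized counts in P cows and 533 to 654 in NP cows. UQCRC1, at 0.0984, was next. The largest were those of COX4I2 at 0.745, NDUFA4L2 at 0.677, ATP5E (ENSBTAG00000039208) at 0.652 and COX7C (ENSBTAG00000039440) at 0.630, all with means under 100.

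**Figure D4:**
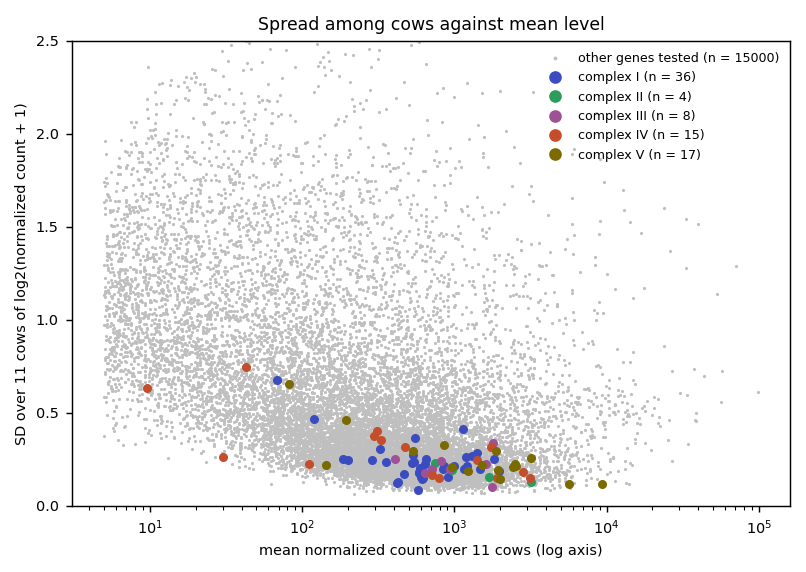
SD over the 11 cows of log2(normalized count + 1) against the mean normalized count (log axis), for 80 of the 81 subunit genes by complex and for the other genes tested in gray. Most subunit genes sit in the lower part of the cloud, with 67 of the 76 genes of mean at least 100 below the median of such genes. The 55 genes above an SD of 2.5 are outside the plot.

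The genes around the complexes were described in the same fit. CYC1, the heme protein of complex III, had 1802 ± 185 normalized counts in P cows and 1819 ± 193 in NP cows. Cytochrome c, CYCS, stood on 2 rows with log2 fold changes of 0.07 (ENSBTAG00000022613) and -0.53 (ENSBTAG00000023823, SE 0.416). The 13 subunit genes of the mitochondrial genome were listed at 0 in every cow, so no level is given for them and no comparison of nuclear with mitochondrial subunits was made. Of 39 assembly factors tested, 17 were above 0, with a median log2 fold change of -0.05. COX18, which inserts a mitochondrially encoded subunit of complex IV into the membrane, was the only one of these with an unadjusted p-value under 0.05. It averaged 71.1 ± 14.1 normalized counts among P cows (SD, n = 6), against 48.1 ± 9.37 among NP cows (SD, n = 5). The log2 fold change was -0.55 (SE 0.21, limma adjusted p = 0.522). This 1 call was 2.56% of the assembly factors, against 7.84% of all genes tested and 2.35% called higher in P cows.

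Regulators of mitochondrial biogenesis numbered 15 tested genes, with a median log2 fold change of 0.04. In limma 0 of them reached an unadjusted p-value under 0.05, against 7.84% of all genes tested. The coactivator PPARGC1A averaged 248 ± 116 normalized counts in P cows and 339 ± 122 in NP cows, and its log2 fold change was 0.49 (SE 0.319, limma adjusted p = 0.770). The transcription factors NRF1, ESRRA and TFAM, which act on subunit genes or on the mitochondrial genome, had log2 fold changes of 0.11, 0.29 and -0.08. Of the 13 genes of the citric acid cycle, 3 were above 0, with a median of -0.08. SUCLA2, a subunit of succinyl-CoA synthetase, averaged 1332 ± 91.4 normalized counts among P cows (SD, n = 6), against 1119 ± 68.4 among NP cows (SD, n = 5). Its log2 fold change was -0.25 (SE 0.0846, limma adjusted p = 0.459). In DESeq2 its adjusted p-value was 0.0852, which passed the threshold of 0.1, as did 1.33% of all genes. Adjusted p-values ran from 0.0852 to 0.756 over the alternatives. The study, which used DESeq2, also lists SUCLA2 among the genes higher in pregnant cows.

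Genes of mitochondrial membranes and protein import, 19 in number, had a median log2 fold change of -0.12 with 3 above 0, and those of the mitochondrial ribosome a median of -0.08 with 16 of 73 above 0. Only MRPL37 of the mitochondrial ribosome had an unadjusted p-value under 0.05, with a log2 fold change of -0.39 (SE 0.156, limma adjusted p = 0.549). That was 1.37% of these genes, against 7.84% of all genes tested. The cytosolic ribosome genes had a median of -0.29, with 2 of 73 above 0 and 0 at an unadjusted p-value under 0.05 in limma. This median was -0.09 without P617, the cow with the highest level, and 0.08 without P617 and P1541. The 17 glycolytic genes had a median of 0.06, with 11 above 0. ENO2, the neuronal enolase, averaged 74.8 ± 51.2 normalized counts among P cows (SD, n = 6), against 164 ± 58.8 among NP cows (SD, n = 5). Its log2 fold change was 1.56 (SE 0.712, limma adjusted p = 0.637), and its lowest P cow, P617, was at 5.65. None of the genes of these lists, SUCLA2 and COX18 included, passed the adjusted threshold in limma, while SUCLA2 passed it in DESeq2.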

How the data were processed

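The authors deposited normalized counts, here treated as a signal, in 1 table of 24616 rows for 11 cows. Per the methods and the submitters' processing notes, the authors filtered paired-end, polyA-selected reads with Seqyclean, mapped them with Bowtie2 2.1.0 to the masked UMD3.1 assembly, counted reads per gene with HTSeq 0.5.4p2 and normalized with DESeq2 1.12.1. CASAVA 1.8.2 is also named. The gene annotation and the use of strand are not given in the sources used here, so the counts of overlapping genes and near-identical copies are uncertain. Divided by the worth of 1 read in that cow, 100% of the values gave whole reads within 0.001. Between 9290949 and 13569085 reads fell on genes per cow, so a mean of 5 normalized counts rests on a few reads.

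Groups were taken from the sample labels. Genes whose mean was 5 or more (15081) were tested with limma 3.58.1 (lmFit and trended eBayes, R 4.3.3) on log2(normalized count + 1), without covariates, with the Benjamini-Hochberg adjustment over all of them and a threshold of 0.1. A fold change on this scale understates the change of low genes. Replicates are single cows. DESeq2 1.42.0 and edgeR 4.0.16 on the recovered reads, limma-voom, other scalings, filters and pseudocounts, marker covariates and leaving out cows were alternatives. Only the main limma fit was tested on simulated data. Lists were described by counts and medians, without a test of the list.

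The members and the gene lists were chosen with earlier results of these data known. Genes were named if they had an unadjusted p-value under 0.05, had the highest or lowest mean or log2 fold change of their complex, belonged to isoform pairs or catalytic cores, or were listed regulators. Up to 3 genes with the smallest p-values under 0.05 were named in each other gene list, the cell type markers aside. Genes named outside this rule are those extreme in cow P617 and members given as the range of a group. The values of 1 member are not reported here by name. Sequences and coordinates of UMD3.1 were not used here. Symbols are those of the table, and the rule was applied to the whole symbol cell of a row.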

Additional observations from a re-analysis of the deposited data

Results flagged for a closer look

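In 7 of 86 groups of cows examined, over 43 items, the highest or lowest cow stood apart from the rest of its group by the 95% criterion of Dixon, which chance alone meets in about 1 of 20 groups. Among NP cows, NP2810 had a median level of complex I of 0.22 on the log2 scale, with the next cow at -0.04, and 1211 normalized counts of UQCR10, with the next at 1025. Among P cows, P1541 had 197 normalized counts of ATP5E (ENSBTAG00000039208), with the next cow at 76.8, and 2454 of NDUFA4, with the next at 1958. P904 had 117 normalized counts of NDUFA4L2, with the next at 44.6, and 40.2 of COX7B (ENSBTAG00000047768), with the next at 29.4. P617 had 438 normalized counts of ATP5S, with the next at 223. No cause of these values was tested.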

How the results depend on the processing

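No paired analysis was possible because the groups held different cows. Over the 24 alternatives, 0 subunit genes passed the adjusted threshold in each, and the smallest adjusted p-value among them ran from 0.145 to 0.881. DESeq2 called 201 genes of the whole table, and limma called 171 without cow P904, 132 with the epithelial covariate and 17 without P617 and P1541, while limma on all cows and edgeR called 0. The 2 subunit genes at an unadjusted p-value under 0.05 became 1 (UQCR10) without a filter on low values, against 7.12% of all genes. With edgeR there was 1 (UQCR10), against 7.63%, and with 1 cow removed at a time 0 to 3, against 5.66% to 10.3%. With the smooth muscle covariate they were 2 other genes, NDUFS1 and UQCRFS1, both higher in P cows, against 5.87% of all genes. The median log2 fold change of the subunit genes was -0.07 to 0.02 with each cow left out and -0.02 to 0.05 under the other settings. Among 49 named genes the log2 fold change changed sign in 0 to 13 per setting, most with the smooth muscle markers as a covariate, and none of these was called. The median of the biogenesis genes became -0.04 without P617. These alternatives were listed with earlier results known, and that of isoform differences was added after the data were seen: the NP minus P difference of COX7A1 from COX7A2 was 0.24, between 0.06 and 0.56 with each cow left out, and 0.68 without P617 and P1541. Genes near the filter rest on few reads per cow.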
